A study of Mus musculus with 9 samples.

Results

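Collagen genes were taken as the rows whose gene name had the form Col, a number, a and a number, with at least 1 read in at least 1 of 9 pancreas libraries. There were 40 such genes among the 46078 genes of the table and the 20629 genes with a read. The table held 44 collagen names, and the 4 without a read in any library were Col2a1, Col9a1, Col24a1 and Col10a1. Whole pancreas of mice aged 8 weeks was the tissue, from which polyA RNA was sequenced in strand-specific libraries. WT mice (n = 3) were littermates of the mutants, Snd1-KI mice (n = 3) carried a knock-in allele of Snd1, and S6k2-RK mice (n = 3) carried an S6k2 allele named RK. The title of the study concerns recognition of methylated S6K2, a kinase of the mTOR pathway encoded by Rps6kb2, by the Tudor domain of SND1. The base changes of the alleles, the strain and the sex of the animals are not given in the sources used here, and no agent was named for any group.

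Collagens are proteins of the extracellular matrix in which chains built of glycine-X-Y repeats, in which X and Y are other residues, wind into a triple helix. Fibrillar collagens form the cable-like fibrils of connective tissue, basement membrane collagens form the sheet under epithelia and around vessels, and the other collagens decorate fibrils, make beaded filaments, anchor epithelia or span the cell membrane. In pancreas, collagens are made mainly by fibroblasts, stellate cells and the cells of vessels, and excess fibrillar collagen is the hallmark of fibrosis. By these classes the 40 genes comprised 9 fibrillar, 8 basement membrane and 23 other collagens. In whole tissue, fewer cells of a type and less RNA per cell cannot be told apart.

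The classes differed in their coding sequence, which was read from GENCODE mouse release 21 (GRCm38) for the longest coding transcript of each gene. The stretches below are shown because they hold the repeat that defines the family. Each is 54 bases long, the length of an exon that holds 6 repeats, and starts at the first glycine codon of the gene's longest unbroken run of glycine-X-Y triplets, with the glycine codons in capitals. The second Col4a1 stretch is the end of its run, where the spacing of glycine codons breaks.
Col1a1 (chromosome 11, from codon 168): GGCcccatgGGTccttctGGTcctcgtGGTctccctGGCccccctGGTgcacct
Col1a2 (chromosome 6, from codon 97): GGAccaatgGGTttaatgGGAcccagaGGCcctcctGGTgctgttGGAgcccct
Col3a1 (chromosome 1, from codon 164): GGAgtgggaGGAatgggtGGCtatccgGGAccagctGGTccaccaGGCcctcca
Col4a1 (chromosome 8, from codon 43): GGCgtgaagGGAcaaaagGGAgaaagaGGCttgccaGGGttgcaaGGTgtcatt
Col4a1, end of the run (from codon 154): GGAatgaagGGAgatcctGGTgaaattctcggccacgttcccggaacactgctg
Col6a6 (chromosome 9, from codon 1391): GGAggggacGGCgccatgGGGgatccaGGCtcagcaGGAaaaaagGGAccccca
Col12a1 (chromosome 9, from codon 2805): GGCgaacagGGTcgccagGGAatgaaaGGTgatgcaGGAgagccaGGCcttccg
The run was 338 triplets long in Col1a1, 339 in Col1a2 and 344 in Col3a1, against 40 in Col4a1, 42 in Col6a6 and 32 in Col12a1. Across the fibrillar class its median was 338 triplets (range 217 to 344), with Col27a1 as the shortest. It was 41 (30 to 66) in the basement membrane class and 45 (23 to 113) in the other class. Basement membrane collagens were broken into a median of 23.5 runs of at least 5 triplets, against 2 in the fibrillar and 6 in the other class. Exons of exactly 54 bases made up a median of 47.7% of the wholly coding exons in fibrillar genes (42.9% to 55.9%), 4.22% in basement membrane genes and 8.82% in other genes. The plot of exon share against run length sets the fibrillar genes apart from all others on the length of the run, while a few of the other class reach their exon share.

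**Figure D1:**
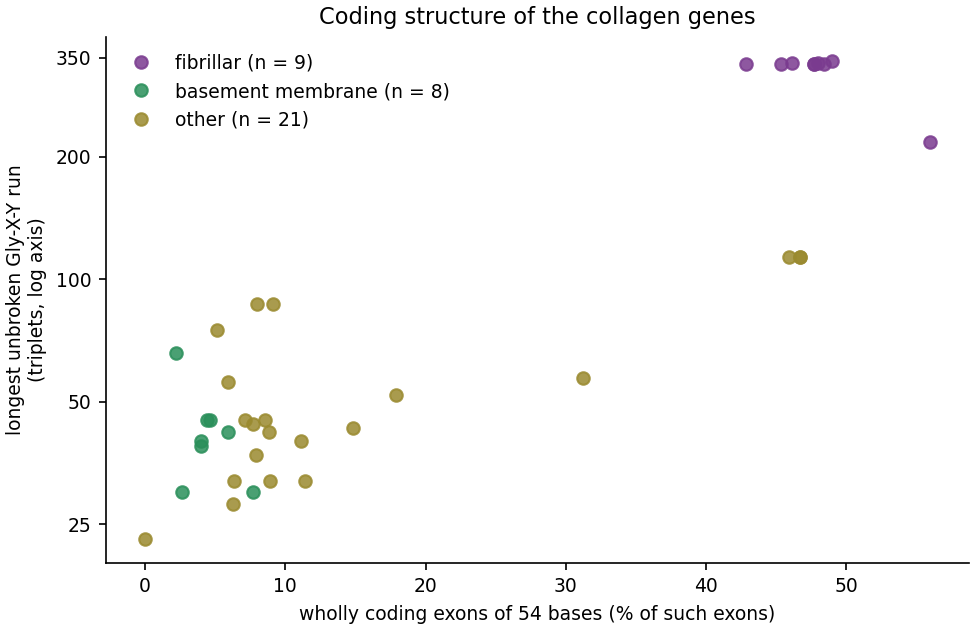
Each point is 1 collagen gene with at least 1 wholly coding exon. The x axis gives the percentage of wholly coding exons that are 54 bases long and the y axis, on a log scale, the longest unbroken run of glycine-X-Y triplets. The 9 fibrillar genes lie at 217 to 344 triplets, and no gene of the other classes is above 113.

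Several collagen genes lie side by side. Col4a1 and Col4a2 encode the chains that pair in the common form of type IV collagen. They stand head to head on chromosome 8 and share 22 bases at their starts (11312805 to 11312826, GRCm38). The promoter window of Col4a2 is shown because it overlaps that of Col4a1. RefSeq windows (GRCm38.p6) run from 250 bases before to 50 bases after the start, and those of Col4a1 and Col4a2 share 78 bases. Most of the Col4a2 window lies inside the Col4a1 gene and outside the Col4a1 window. In both windows printed here, capitals mark 3 motifs on either strand. The GC box was searched as GGGCGG. For the CCAAT box the letters of its name were used. TATAAA stood for the TATA box. The window of Col6a6 is shown because Col6a6 was the collagen called higher in Snd1-KI.
Col4a2 (chr8:11312555-11312854, plus strand): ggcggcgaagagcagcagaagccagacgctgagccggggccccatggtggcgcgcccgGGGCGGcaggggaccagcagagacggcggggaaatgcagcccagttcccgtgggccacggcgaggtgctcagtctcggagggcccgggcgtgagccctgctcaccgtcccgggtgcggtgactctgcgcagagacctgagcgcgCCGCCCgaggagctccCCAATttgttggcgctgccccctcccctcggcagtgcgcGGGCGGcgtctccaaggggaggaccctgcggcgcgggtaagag
Col6a6 (chr9:105828036-105828335, minus strand): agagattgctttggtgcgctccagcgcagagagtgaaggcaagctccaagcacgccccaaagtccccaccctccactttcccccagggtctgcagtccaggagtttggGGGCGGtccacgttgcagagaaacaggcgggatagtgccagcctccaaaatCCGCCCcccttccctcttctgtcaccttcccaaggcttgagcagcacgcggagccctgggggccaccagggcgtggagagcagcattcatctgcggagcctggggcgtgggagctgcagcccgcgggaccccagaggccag
In the Col4a2 window the CCAAT box began 32 bases before the start. GC box letters stood at -192, -48 and +8. The Col6a6 window held GC box letters at -142 and -91 and neither of the other motifs. RefSeq windows matched 32 of the 40 genes, with 34 windows in all. GC box letters occurred in 23 of the 34 (67.6%), against 35.7% of all 32851 windows of the table. The CCAAT box occurred in 12 of 34 against 37.4% of all windows, and the TATA box in 4 of 34 against 13.6%. No motif overlaps another in the windows printed, and a match describes the sequence only.

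Of the 40 collagens, 25 averaged 10 or more normalized counts across the libraries and entered the test: 7 fibrillar, 7 basement membrane and 11 other collagens. The other 15 are given by their reads further on. Each library held 13461427 to 21034501 reads in genes. The number of genes with a read was 16724 to 17115 in WT, 16016 to 16486 in Snd1-KI and 15266 to 15928 in S6k2-RK. Values are normalized counts, that is, reads divided by 1 size factor per library. Levels of different genes are compared only per kilobase (kb) of the longest transcript. Snd1 stood at 1993 ± 162 normalized counts in WT, 2903 ± 244 in Snd1-KI and 2801 ± 433 in S6k2-RK (mean ± SD, n = 3). Rps6kb2 stood at 57.9 ± 6.83, 43.8 ± 8.24 and 35.4 ± 17.8. RNA levels of this kind cannot tell whether a mouse carried its labelled allele.

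Fibrillar collagens held the largest share of collagen RNA per kb in every library, between 50.2% and 56.6%. Basement membrane collagens held 19.5% to 28.3% and the other collagens 20.7% to 24.2%. Within the fibrillar class, Col3a1, the chain of type III collagen found in reticular fibres, was highest, at 419 ± 122 normalized counts per kb in WT (mean ± SD, n = 3). Col1a2 and Col1a1, the chains of type I collagen, followed at 169 ± 35.2 and 91.5 ± 29.6. These 3 genes together made up 45.3% to 52.5% of collagen RNA per kb in each library. Col5a2 and Col5a1, chains of the type V collagen that helps start fibrils, had 25.7 and 25.03 normalized counts per kb in WT, Col5a3 had 8.21 and Col27a1 had 5.07. The order of Col5a2 and Col5a1 was not separated by the spread between libraries, since their ratio ran from 0.778 to 1.33.

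Col4a1 led the basement membrane class with 143 ± 40.4 normalized counts per kb in WT, followed by Col4a2 at 98.9 ± 29.2 and Col15a1 at 63.4 ± 19.7. Col18a1, whose protein yields the fragment endostatin, had 39.9. The minor type IV chains were lower, at 10.9 for Col4a5, 3.41 for Col4a6 and 1.07 for Col4a4. In the other class the chains of type VI collagen, which builds beaded filaments around cells, were highest: Col6a1 had 93.4 ± 20.5 and Col6a2 had 89.1 ± 22.7 normalized counts per kb. Col7a1, the anchoring fibril collagen of epithelia, followed at 40.9 ± 8.60. Col14a1, which binds the surface of fibrils, had 28.9, and Col6a3, Col6a5, Col13a1, Col16a1 and Col6a6 lay between 5.14 and 14.2. Col12a1 (2.23) and Col8a1 (2.06) were the lowest tested members of that class. By group means, the 3 leading genes of each class kept this order in all 3 groups, although the libraries did not separate Col6a1 from Col6a2. The plot of levels per kb shows the genes in this order.

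**Figure D2:**
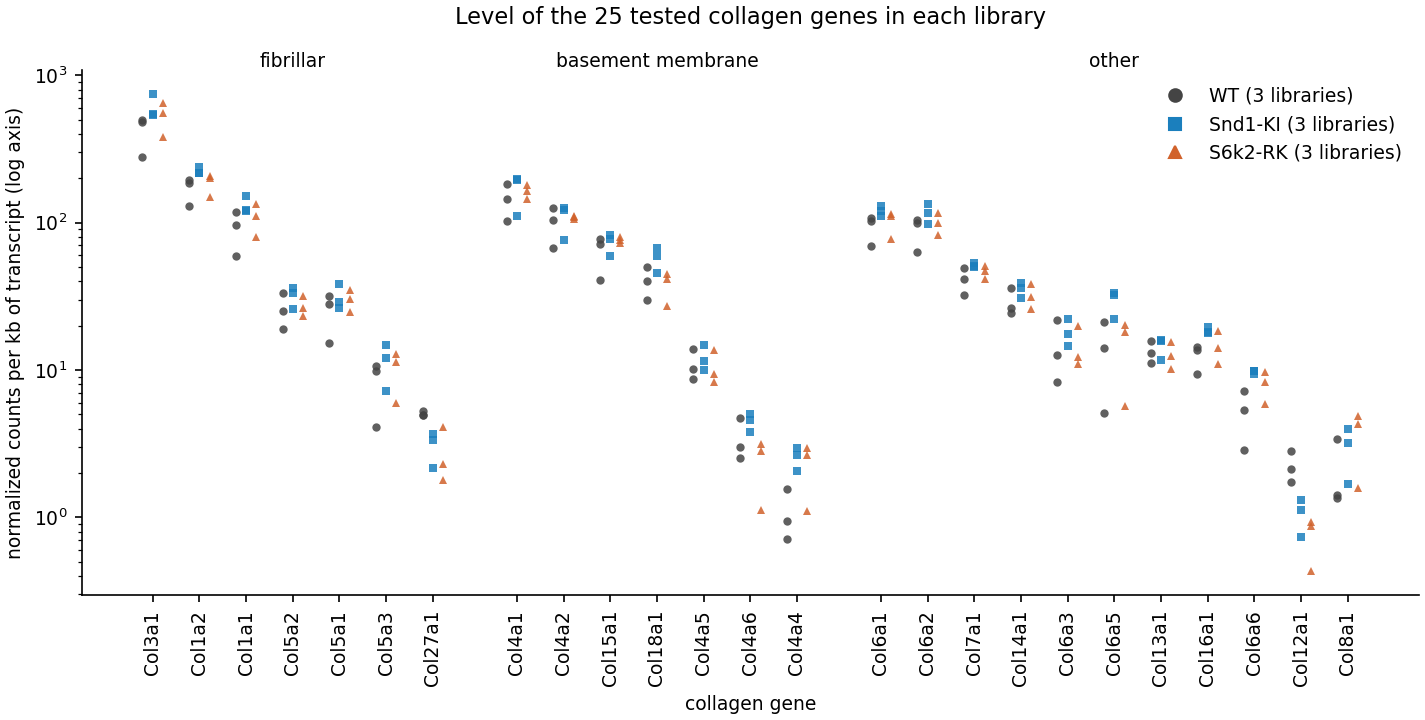
Normalized counts per kb of transcript (log axis) of the 25 tested collagens, with 1 point per library and the genes in order of their WT level within each class. Col3a1, Col4a1 and Col6a1 lead their classes in WT at 419, 143 and 93.4 normalized counts per kb, and the S6k2-RK libraries overlap those of WT for most genes.

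Ratios between chains were taken per kb in each library. The Col1a1 to Col1a2 ratio per kb lay between 0.463 and 0.644 in the 9 libraries, with means of 0.533 ± 0.0912 in WT, 0.584 ± 0.0434 in Snd1-KI and 0.579 ± 0.0570 in S6k2-RK (SD, n = 3). The Col4a1 to Col4a2 ratio lay between 1.37 and 1.66, and that of Col6a1 to Col6a2, which lie 85161 bases apart on the same strand of chromosome 10, between 0.948 and 1.16. Col3a1 to Col1a1 ran from 4.19 to 5.0. Col6a3 to Col6a1 ran from 0.111 to 0.212. Among ratios of minor chains, Col6a5 to Col6a6 ran from 0.968 to 3.97. Col4a5 to Col4a6, head to head 1308 bases apart on the X chromosome, ran from 2.30 to 7.46. No ratio was tested.

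Summed over all members, collagens took 0.0737%, 0.0450% and 0.0747% of the counts in WT 1, 2 and 3. They took 0.0699%, 0.0781% and 0.0616% in Snd1-KI and 0.0656%, 0.0525% and 0.0388% in S6k2-RK. The shares of all 3 groups overlapped. The lowest value, in S6k2-RK 3, had a 95% Wilson interval of 0.0379% to 0.0398%, so that the spread between animals was far wider than the counting error. In normalized counts the sum was 8392 ± 2193 in WT, 11106 ± 1496 in Snd1-KI and 9636 ± 1515 in S6k2-RK (mean ± SD, n = 3), and the libraries of the groups overlapped. The mean shares were 0.0645%, 0.0699% and 0.0523%, so that S6k2-RK stood below WT by share and above it by sum. The share divides the sum by all normalized counts of the library. These totals ran from 1.28e+07 to 1.32e+07 in WT, 1.55e+07 to 1.63e+07 in Snd1-KI and 1.675e+07 to 2.06e+07 in S6k2-RK.

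WT 2 stood apart from its group. It was the lowest WT library in 19 of the 25 tested collagens and the highest in 0, whereas it was the lowest in 35.6% of all genes tested, and its collagen sum was 0.700 of the WT mean. S6k2-RK 3 was the lowest of its group in 18 of 25, against 31.6% of all genes. The sum of 10 fibroblast markers in WT 2 was 5928 normalized counts, against 7149 and 6803 in WT 1 and 3, and in S6k2-RK 3 it was 4753, against 6309 and 5721. The sum of 8 T cell markers, by contrast, was highest in WT 2, at 755 against 256 and 569. The part that these values have in the collagen levels was not tested. The plot of class sums shows WT 2 at the foot of each collagen panel.

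**Figure D3:**
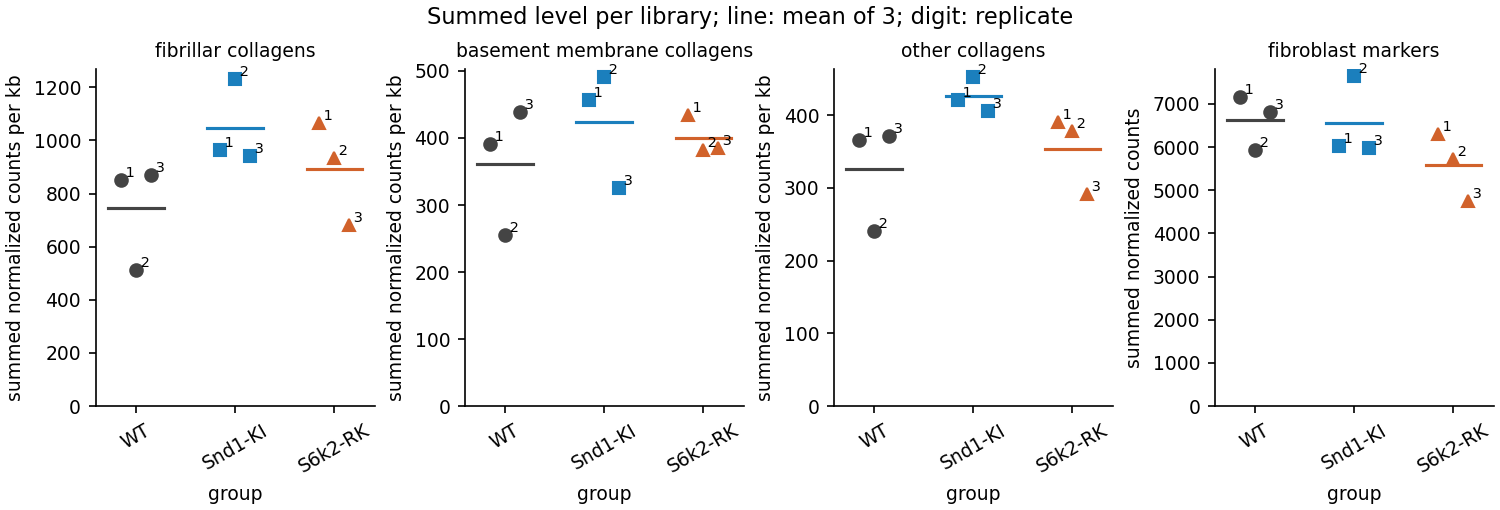
Summed normalized counts per kb of the fibrillar, basement membrane and other collagens in each library, and, in the last panel, summed normalized counts of 10 fibroblast markers. WT 2 has the lowest sum in each collagen panel (511, 255 and 241), and the groups overlap in the fibroblast panel.

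Snd1-KI pancreas had higher mean values than WT for most collagens, but the test called few of them. Of 25 tested collagens, 1 was called higher, Col6a6, and 0 were called lower, at a limma adjusted p below 0.05 (two-sided). Over all 11953 genes tested, 2.4% were called higher and 3.2% lower, so that 1 of 25 is near the background. A log2 fold change above 0 was found for 23 of 25 collagens, against 50.3% of all genes. Its median was 0.40 over the 25 collagens, 0.43 in the fibrillar, 0.24 in the basement membrane and 0.40 in the other class, against 0.0027 over all genes tested. Without WT 2 the median over the 25 fell to 0.19, that of the fibrillar class to 0.12, and 19 of 25 were above 0. With all libraries scaled to equal totals, the median gene shifted by -0.28 and the median collagen stood at 0.12, with 18 of 25 above 0. An unadjusted p below 0.05 was reached by 13 collagens, 11 of them higher, which is 52% against 20.1% of all genes. Without WT 2 it was reached by 2 collagens. In that fit, with 2 WT libraries, the calls over all genes also fell, from 287 higher and 383 lower to 78 and 135.

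For 9 collagens every Snd1-KI library lay above every WT library, and for 2 every Snd1-KI library lay below, against 14.1% and 13% of all genes. The 9 were 3 fibrillar genes (Col3a1, Col1a2, Col1a1), 1 basement membrane gene (Col4a4) and 5 others (Col6a1, Col7a1, Col6a5, Col16a1, Col6a6). The 2 were Col27a1 and Col12a1. The 95% interval of the log2 fold change lay wholly within a 2-fold change in either direction for 15 of 25 collagens. Over all genes it did so for 9232 of 11953, a larger share. Its distance from the estimate had a median of 0.45 over the 25 and 0.41 over all genes.

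In S6k2-RK against WT, Col12a1 was called lower and 0 collagens were called higher, against 6.83% of all genes called lower and 5.2% called higher. The count of members is no more than the background. The log2 fold change was above 0 for 19 of 25 collagens, with a median of 0.17 (0.27 fibrillar, 0.17 basement membrane, 0.14 other, 0.0024 over all genes). Without WT 2 only 8 of 25 were above 0 and the median was -0.06. With equal totals the median gene shifted by -0.51, and 3 of 25 collagens were above 0 with a median of -0.35, so the direction of the class medians in S6k2-RK depended on the scaling and on WT 2. All S6k2-RK libraries lay above all WT libraries for 0 collagens and below them for 2, Col27a1 and Col12a1, against 14.7% and 13.6% of all genes. The interval lay within a 2-fold change for 17 of 25 collagens, against 8853 of all 11953 genes.

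Between the mutants 0 collagens were called higher and 0 lower in S6k2-RK, against 0.0586% of all genes in each direction. On the recovered reads edgeR called 0. DESeq2 gave an adjusted p for 8 of the 25 and called 0 of these. An unadjusted limma p below 0.05 was reached by 3 collagens, all lower in S6k2-RK, which is 12% against 10.1% of all genes. Without S6k2-RK 3 it was reached by 0, and the calls over all genes went from 7 higher and 7 lower to 2 and 4. The median log2 fold change was -0.23 over the 25 collagens, against -0.0045 over all genes, and 4 of 25 were above 0. Without S6k2-RK 3 the median was -0.10. With equal totals the median gene shifted by -0.23, and the median collagen stood at -0.46 with 0 of 25 above 0. The libraries of the mutants did not overlap for 4 collagens, all lower in S6k2-RK (Col18a1, Col4a6, Col1a2, Col6a5), and for 0 that were higher, against 7.35% and 7.81% of all genes. Both comparisons with WT use the same 3 WT libraries, so that a shared direction in the mutants is not independent. The plot of fold changes with their intervals shows the 2 called genes and the spread of the rest.

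**Figure D4:**
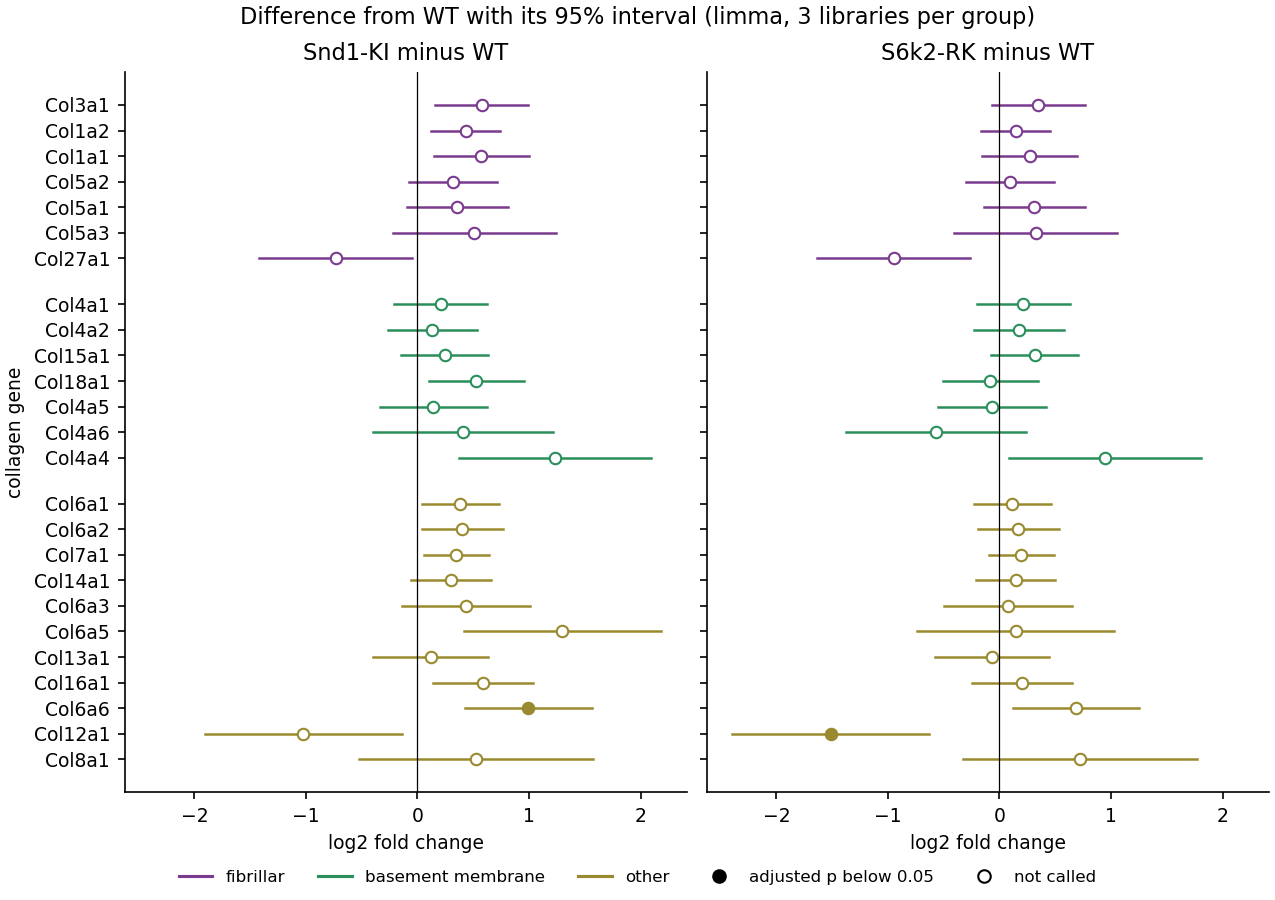
Log2 fold change (x axis) of each tested collagen in Snd1-KI and in S6k2-RK against WT, with its 95% interval as a line. Filled points are called, which are Col6a6 at 0.99 in Snd1-KI and Col12a1 at -1.51 in S6k2-RK; 23 of 25 points lie above 0 in Snd1-KI and 19 of 25 in S6k2-RK.

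Among the fibrillar collagens, Col3a1 (ENSMUSG00000026043, chromosome 1, 45311538 to 45349706, GRCm38, plus strand) had 2693, 1549 and 2756 normalized counts in WT 1 to 3. It had 3057, 4156 and 3004 in Snd1-KI and 3588, 3091 and 2135 in S6k2-RK. Every Snd1-KI library lay above every WT library, while S6k2-RK overlapped WT. The log2 fold change was 0.58 ± 0.20 (SE) in Snd1-KI (limma adjusted p = 0.103) and 0.35 ± 0.20 in S6k2-RK (adjusted p = 0.276), and neither passed the threshold. Without WT 2 they were 0.31 and 0.076.

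Col1a2 (chromosome 6, 4504814 to 4541544) had 1033, 688 and 992 normalized counts in WT, 1163, 1284 and 1160.3 in Snd1-KI and 1109, 1074 and 800.0 in S6k2-RK. Col1a1 (chromosome 11, 94936224 to 94953042) had 574, 353 and 700.2 in WT, 726, 903 and 714 in Snd1-KI and 792, 660.3 and 477 in S6k2-RK. Both type I chains thus showed the order seen for Col3a1, with Snd1-KI above WT without overlap. Neither was called in Snd1-KI, at a log2 fold change of 0.43 ± 0.15 for Col1a2 (limma adjusted p = 0.0959) and 0.57 ± 0.20 for Col1a1 (adjusted p = 0.109). In S6k2-RK the changes were 0.14 and 0.27, with adjusted p = 0.570 and 0.418. Col1a2 was called in Snd1-KI when only WT and Snd1-KI were fitted (adjusted p = 0.0492), and Col1a1 when WT 3 was left out (log2 fold change 0.79, adjusted p = 0.0295). Without WT 2 the changes in Snd1-KI were 0.25 for Col1a2 and 0.29 for Col1a1, and those in S6k2-RK were -0.041 and -0.010.

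Col27a1 (chromosome 4, 63214004 to 63334991), a fibrillar collagen best known from cartilage, was the one tested member of its class with lower means in both mutants. It had 37.5, 37.8 and 40.3 normalized counts in WT, 16.5, 27.9 and 25.7 in Snd1-KI and 31.0, 17.5 and 13.6 in S6k2-RK. All mutant libraries were below all WT libraries. The log2 fold change was -0.73 ± 0.33 in Snd1-KI (limma adjusted p = 0.216) and -0.95 ± 0.33 in S6k2-RK (adjusted p = 0.0661). Without S6k2-RK 1 the latter was -1.27 and was called (adjusted p = 0.0154), as it was by edgeR and DESeq2 without that library (adjusted p = 0.0252 and 0.0347). Over all single libraries left out its adjusted p ran up to 0.235. Col27a1 is named after its values were seen, as are Col6a5, Col4a4, Col18a1 and Col8a2. Col5a1, Col5a2 and Col5a3 had log2 fold changes of 0.32 to 0.51 in Snd1-KI and 0.097 to 0.33 in S6k2-RK, and none was called. Without WT 2 these were 0.038 to 0.12 and -0.10 to -0.0064.

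The leading basement membrane collagens overlapped between all groups. Col4a1 (chromosome 8, 11198423 to 11312826, minus strand) had 955, 677 and 1212 normalized counts in WT, 1298, 1279 and 730.4 in Snd1-KI and 1192, 951 and 1079 in S6k2-RK. Col4a2 (chromosome 8, 11312805 to 11449287, plus strand) had 673, 434 and 806 in WT, 783, 809 and 492 in Snd1-KI and 699, 678 and 715 in S6k2-RK. For both genes the lowest libraries were WT 2 and Snd1-KI 3, and the S6k2-RK libraries were close together. The log2 fold change of Col4a1 was 0.21 ± 0.20 in Snd1-KI and 0.21 ± 0.20 in S6k2-RK, and that of Col4a2 was 0.13 and 0.17 (limma adjusted p from 0.529 to 0.750). Without WT 2 Col4a1 stood at -0.013 in Snd1-KI and -0.0084 in S6k2-RK, and Col4a2 at -0.12 and -0.080. The intervals of Col4a1 in Snd1-KI, -0.21 to 0.63, and of Col4a2, -0.27 to 0.54, leave out a 2-fold change in either direction.

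Col15a1 (chromosome 4, 47208161 to 47313167), a collagen of vessel and nerve basement membranes, had 371, 212 and 401 normalized counts in WT. It had 401, 425 and 308 in Snd1-KI and 412, 393 and 375 in S6k2-RK, and the groups overlapped (log2 fold change 0.24 and 0.31, limma adjusted p = 0.495 and 0.291). Without WT 2 these were -0.043 and 0.027. Col18a1 was 223 ± 55.9 in WT, 320.0 ± 61.4 in Snd1-KI and 211 ± 53.1 in S6k2-RK (mean ± SD, n = 3). Its difference between the mutants was -0.61 on the log2 scale (limma adjusted p = 0.281), and -0.39 without S6k2-RK 3. Col4a4, a type IV chain of the glomerular network, had 9.60, 7.21 and 15.7 normalized counts in WT, 26.8, 20.9 and 29.9 in Snd1-KI and 29.99, 26.8 and 11.1 in S6k2-RK. Its log2 fold change was 1.23 in Snd1-KI (limma adjusted p = 0.0896) and 0.95 in S6k2-RK (adjusted p = 0.142), and it stands head to head with Col4a3, 71 bases apart. Without S6k2-RK 3 Col4a4 was called in both, with limma adjusted p = 0.0494 and 0.0479. Without WT 2 its changes were 1.00 and 0.72, and with equal totals 0.97 and 0.47, with no call in either setting. Its reads in WT 1 to 3 were 11, 8 and 16.

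Among the other collagens, Col6a1 (chromosome 10, 76708792 to 76726168) had 441, 286 and 422 normalized counts in WT, 494, 531 and 452 in Snd1-KI and 452, 471 and 319 in S6k2-RK. Col6a2 (chromosome 10, 76595762 to 76623630) had 489, 309.9 and 514 in WT, 573, 653 and 480.2 in Snd1-KI and 568, 486 and 403 in S6k2-RK. Snd1-KI lay above WT without overlap for Col6a1 but not for Col6a2. Neither was called, at log2 fold changes of 0.38 ± 0.16 and 0.40 ± 0.17 in Snd1-KI (limma adjusted p = 0.195 and 0.199) and 0.12 and 0.17 in S6k2-RK. Without WT 2 they stood at 0.19 and 0.17 in Snd1-KI and at -0.080 and -0.061 in S6k2-RK. Col7a1 (chromosome 9, 108953586 to 108984875) had 456, 297 and 382 in WT, 494, 464 and 466 in Snd1-KI and 386, 467 and 433 in S6k2-RK. It was higher in all Snd1-KI libraries than in any WT library, with a log2 fold change of 0.35 ± 0.14 (limma adjusted p = 0.160), which was 0.19 without WT 2.

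Col6a6 (ENSMUSG00000043719, chromosome 9, 105687809 to 105828160, GRCm38, minus strand) encodes a minor chain of type VI collagen. It had 47.1, 25.2 and 62.9 normalized counts in WT, 85.7, 82.9 and 86.6 in Snd1-KI and 73.0, 84.5 and 51.9 in S6k2-RK. The Snd1-KI libraries were close together and above all WT libraries, and S6k2-RK overlapped both groups. Col6a6 was higher in Snd1-KI by a log2 fold change of 0.99 ± 0.27 (SE, 95% interval 0.43 to 1.56, limma adjusted p = 0.0369), which is 1.99-fold. In S6k2-RK the change was 0.68 ± 0.27 (adjusted p = 0.107). Leaving out WT 1, WT 2 or any Snd1-KI library ended the call, with an adjusted p of up to 0.205, and without WT 2 the log2 fold change was 0.63. The call was also lost with equal totals (0.71, adjusted p = 0.105) and with a minimum mean of 50 (adjusted p = 0.0511), and held in edgeR and DESeq2 (adjusted p = 0.0368 and 0.0219). Without WT 3, Col6a6 was called in S6k2-RK as well (0.97, adjusted p = 0.0320).

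Col6a5, another minor type VI chain, lies 27917 bases from Col6a6 on the same strand. It had 198, 47.7 and 131 normalized counts in WT, 205, 299.7 and 307 in Snd1-KI and 168, 188 and 53.2 in S6k2-RK. WT 2 and S6k2-RK 3 were low for Col6a5 as they were for the class. The log2 fold change was 1.30 ± 0.42 in Snd1-KI (limma adjusted p = 0.0816) and 0.14 ± 0.42 in S6k2-RK (adjusted p = 0.863). The difference between the mutants, -1.16, had an adjusted p of 0.335, and without S6k2-RK 3 it was -0.58 (adjusted p = 0.788). Col6a5 was called in Snd1-KI without WT 1 (1.74, adjusted p = 0.0312) and without S6k2-RK 3 (adjusted p = 0.0253), and without WT 2 its change was 0.72 (adjusted p = 0.390). Col6a4, 28810 bases beyond Col6a5, had 2 reads in all. These 3 genes resemble one another in sequence, and the way the authors assigned reads that match several genes is not given in the sources used here.

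Col12a1 (ENSMUSG00000032332, chromosome 9, 79598991 to 79718831, GRCm38, minus strand) encodes a collagen that binds the surface of type I fibrils. It had 20.1, 24.3 and 32.5 normalized counts in WT, 13.0, 8.52 and 14.97 in Snd1-KI and 9.996, 10.7 and 4.95 in S6k2-RK. All mutant libraries lay below all WT libraries. Col12a1 was lower in S6k2-RK by a log2 fold change of -1.51 ± 0.42 (95% interval -2.40 to -0.63, limma adjusted p = 0.0249), and stood at -1.02 ± 0.42 in Snd1-KI (adjusted p = 0.174). The difference between the mutants was -0.49 (adjusted p = 0.738). The gene had 145 reads over the 9 libraries, 4 to 33 in each, and its S6k2-RK mean, 8.56, was below the minimum of 10. It was also called with no minimum mean (limma adjusted p = 0.0492). edgeR and DESeq2 on these reads called it too (adjusted p = 0.0211 and 0.0214). Leaving out WT 2, WT 3 or S6k2-RK 3 ended the call, with an adjusted p of up to 0.104 and a log2 fold change of -1.20 to -1.54.

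**Figure D5:**
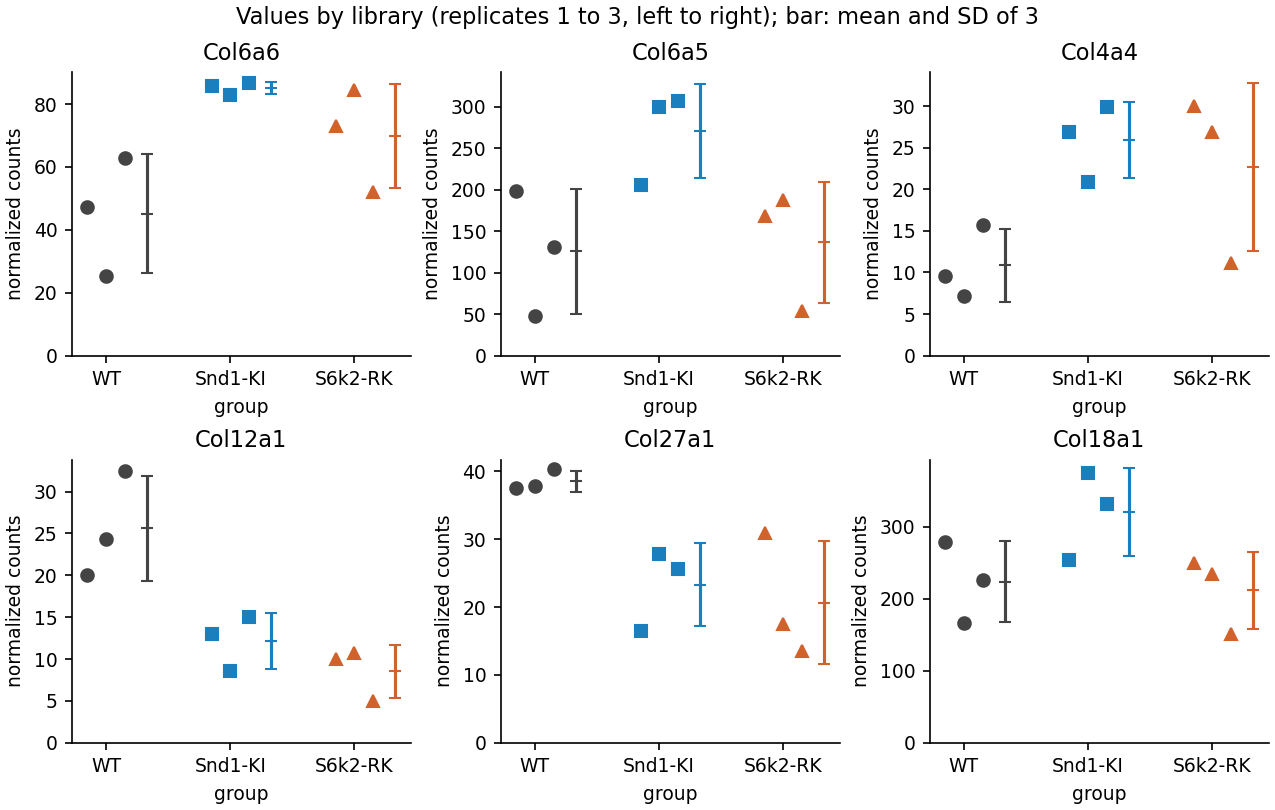
Normalized counts (y axis) of 6 collagens in each library, in the order of replicates 1 to 3, with the mean and SD of each group beside them. Col12a1 and Col27a1 lie below WT in all mutant libraries, and Col6a6, Col6a5 and Col4a4 lie above WT in all Snd1-KI libraries.

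The remaining tested members of the other class, Col14a1, Col6a3, Col16a1, Col13a1 and Col8a1, had log2 fold changes of 0.12 to 0.58 in Snd1-KI and -0.07 to 0.72 in S6k2-RK, and none was called. Without WT 2 these were -0.0016 to 0.39 and -0.25 to 0.54. Of the 15 members below the minimum mean, 2 were fibrillar (Col11a1, Col11a2), 1 was a basement membrane collagen (Col4a3) and 12 were others. Col20a1 had 79 reads over the 9 libraries, Col9a3 had 73, Col4a3 had 69 and Col23a1 had 69. Col8a2 had 54, Col28a1 had 42, Col11a2 had 24, Col9a2 had 16 and Col22a1 had 12. The other 6 (Col11a1, Col17a1, Col19a1, Col26a1, Col6a4, Col25a1) had 1 to 5 reads. In a fit without the minimum mean, 0 of the 15 were called in any comparison. Col8a2, a collagen of the hexagonal lattice under endothelia, came nearest, with 1.74, 0.901 and 2.95 normalized counts in WT, 7.79, 9.29 and 11.8 in Snd1-KI and 3.999, 12.1 and 3.71 in S6k2-RK. Its log2 fold change in Snd1-KI was 1.94 ± 0.60 (limma adjusted p = 0.0900).

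Genes that fold, process, bind or regulate collagen were read from 7 lists with 84 tested genes. In Snd1-KI 3 were called higher (3.57%) and 1 lower (1.19%), against 2.4% and 3.2% of all genes, and in S6k2-RK 5 were called higher (5.95%) and 6 lower (7.14%), against 5.2% and 6.83%. Of 18 tested genes for collagen folding and hydroxylation, 0 were called in Snd1-KI, and in S6k2-RK 2 were called higher and 1 lower. P4hb, a subunit of the prolyl hydroxylase that is also a general protein disulfide isomerase, rose from 13017 ± 519 normalized counts in WT to 18670 ± 2427 in S6k2-RK (log2 fold change 0.51, limma adjusted p = 0.00691), and Ppib, a prolyl isomerase, rose by 0.33 (adjusted p = 0.0267). With equal totals they stood at -0.0079 and -0.19. Colgalt1, which adds galactose to hydroxylysine, fell by 0.49 (adjusted p = 0.0395). Of 10 tested genes for processing and crosslinking, the transglutaminase Tgm2 alone was called, lower in S6k2-RK (-0.38, adjusted p = 0.0357).

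Of 16 fibril-associated genes, the proteoglycan Fmod was higher in Snd1-KI (1.02, limma adjusted p = 0.0347, and 0.74 with equal totals). The fibrillin Fbn1 was higher in S6k2-RK (0.72, adjusted p = 0.0193, and 0.20 with equal totals), with no other call. Of 16 basement membrane partners, the laminin chain Lamb3 was higher in both mutants, at 155 ± 17.2 normalized counts in WT, 300.1 ± 24.0 in Snd1-KI and 293 ± 45.5 in S6k2-RK. Its log2 fold changes were 0.95 (limma adjusted p = 0.000842) and 0.91 (adjusted p = 0.000429), and both calls held whichever library was left out. With equal totals the changes of Lamb3 were 0.67 and 0.39. Nid2, which links laminin to type IV collagen, was higher in Snd1-KI (0.65, adjusted p = 0.0481, and 0.37 with equal totals). The proteoglycan Agrn was lower in S6k2-RK (-0.44, adjusted p = 0.0306, and -0.96 with equal totals). None of 6 tested collagen receptors was called. Of 6 genes for collagen degradation, the inhibitor Timp3 was lower in S6k2-RK (-0.44, adjusted p = 0.0171).

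Of 12 genes of TGF-beta signalling, a pathway that drives collagen transcription in fibroblasts, Ccn2 was lower in both mutants. Ccn2, a matricellular target of the pathway, had 99.2 ± 20.8 normalized counts in WT, 56.3 ± 4.24 in Snd1-KI and 53.5 ± 15.1 in S6k2-RK (log2 fold change -0.79 and -0.90, limma adjusted p = 0.0430 and 0.0134). In S6k2-RK the ligand Tgfb1 was lower (-0.77, adjusted p = 0.0312) and Smad3, a transducer, was higher (0.59, adjusted p = 0.0221, and 0.071 with equal totals). No gene of these 7 lists was called between the mutants. Leaving out 1 library at a time ended each call of these lists at least once, except those of Lamb3 and P4hb.

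Markers of the cells that make collagen were given the same test, in which 2.4% of all genes were called higher and 3.2% lower in Snd1-KI, and 5.2% and 6.83% in S6k2-RK. Of 10 fibroblast markers, 0 were called in any comparison, none was at 0, and their sum was 6627 ± 629 normalized counts in WT, 6557 ± 953 in Snd1-KI and 5594 ± 785 in S6k2-RK (mean ± SD, n = 3). Of 8 markers of stellate cells and pericytes, Des was called lower in Snd1-KI (-0.81, limma adjusted p = 0.0263) and 0 in S6k2-RK. Of 8 smooth muscle markers, Acta2 and Tagln were called lower in both mutants, and the sum ran from 1268 to 1475 in WT, 690.1 to 904 in Snd1-KI and 616 to 1197 in S6k2-RK. Endothelial markers were called lower for 2 of 10 in Snd1-KI and 3 of 10 in S6k2-RK, and Schwann cell markers for 0 of 4.

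Markers of other cell types moved with the groups, and their counts stand against the same shares of all genes. Of 6 mesothelial markers, 3 were called higher in Snd1-KI, with sums of 897, 633 and 841 normalized counts in WT, 1110.0, 1463 and 1569 in Snd1-KI and 1007, 898 and 579 in S6k2-RK. T cell markers were called lower for 8 of 8 in both mutants, B cell markers for 7 and 8 of 8, and lymph node stroma markers for 5 of 6 in each. Adipocyte markers were called lower for 7 of 8 and macrophage markers for 5 of 8 in S6k2-RK, and for 0 in Snd1-KI. Acinar markers took 38.5% to 38.9% of the counts in WT, 41.2% to 42.1% in Snd1-KI and 41.5% to 42.2% in S6k2-RK. Their sum averaged 5.04e+06 normalized counts in WT, 6.60e+06 in Snd1-KI and 7.85e+06 in S6k2-RK, with 1 and 2 of 8 called higher in the mutants. Ductal markers had 2 of 8 called higher in each mutant. Krt19, called higher in Snd1-KI, is in both the mesothelial and the ductal list. Islet markers had 0 of 8 called. The part of these cell types in the collagen values was not tested.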

How the data were processed

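PolyA RNA of 9 whole pancreases (3 per group) was sequenced from strand-specific paired-end libraries, per the labels' protocols. The submitters' processing notes name DESeq2 and the builds GRCm38 and mm10. How reads were aligned, counted and assigned when they match several places is not given in the sources used here. The authors deposited 1 table of 46078 genes of normalized counts, a signal in which the reads of each gene are divided by the size factor of the library. Values were whole multiples of 1 read in every library (100% within 1e-06), which gave back 13461427 to 21034501 reads per library. For S6k2-RK replicate 1 the value of 1 read was 1.00, so read-based tests were also run without it.

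Genes that averaged 10 or more normalized counts (11953) were tested with limma 3.58.1 in R 4.3.3 on log2(normalized count + 1), in 1 fit of all 9 libraries with a mean-variance trend. A call was a two-sided Benjamini-Hochberg adjusted p below 0.05 over all genes tested. Folds on this scale understate changes of genes with low counts. Leaving out a library lowers the replicates to 2 in that group, whose spread is then taken from the pooled fit. Transcript lengths, coordinates and coding sequences are from GENCODE release 21 on GRCm38, and promoters from RefSeq (GRCm38.p6). The test was tried on simulated data.

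Members and lists were chosen with earlier results of these data known. Values in every library are given for each called collagen and for the 3 members of each class highest per kilobase in WT; called genes of the pathway lists are named, up to 4 per list and comparison. Alternatives were pseudocounts of 0.5 and 5, no minimum mean or 50, equal totals, TMM, only the 2 groups compared, a replicate block, a correction for length and GC, edgeR 4.0.16 and DESeq2 1.42.0 on reads, and leaving out each library. The labels name 3 animals per group but not their litters or cages. Replicates were no copies of each other: a chi-square test of their reads gave 7.64 to 20.4 per degree of freedom. Intervals of shares cover counting error only.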

Additional observations from a re-analysis of the deposited data

How the results depend on the processing

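The count of collagens called higher in Snd1-KI, 1, became 0 with a minimum mean of 50, with equal totals and with the replicate block. Over all genes tested, 287 were called higher in the main fit, and 243 of 8097, 45 and 249 in these settings. When only WT and Snd1-KI were fitted the collagen count was 3 (Col1a2, Col6a5, Col6a6), and 422 of all genes were called higher. Over the libraries left out the collagen count ran from 0 to 3, and that of all genes from 78 to 381. The count called lower in S6k2-RK, 1, became 0 with a minimum mean of 50, where Col12a1 is not tested. With equal totals it was 4 (Col12a1, Col18a1, Col27a1, Col4a6), while 5954 of all 11953 genes were called lower, against 816 in the main fit. It was 2 in edgeR and DESeq2 without S6k2-RK replicate 1, an alternative chosen after seeing the data. Over all genes these called 951 and 814 lower. Over the libraries left out the collagen count called lower in S6k2-RK ran from 0 to 2, and that of all genes from 487 to 1016. The collagen count called higher in S6k2-RK ran from 0 to 1, and that of all genes from 246 to 856. With equal totals, the median log2 fold change in Snd1-KI was -0.040 in the basement membrane and 0.12 in the other class. Of the fibrillar genes, Col3a1, Col1a2 and Col1a1 then stood at 0.29, 0.15 and 0.29. Col5a1, Col5a2 and Col5a3 stood at 0.072, 0.034 and 0.23, and Col27a1 at -1.01. In S6k2-RK the median was -0.25 in the fibrillar, -0.35 in the basement membrane and -0.37 in the other class. Between the mutants it was -0.44 in the basement membrane and -0.50 in the other class. Without S6k2-RK replicate 1 the basement membrane median between the mutants was -0.45 in edgeR and -0.45 in DESeq2. The collagen share outside the acinar markers was 0.105% in WT, 0.120% in Snd1-KI and 0.0901% in S6k2-RK. The causes were not tested.

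Same-numbered libraries of different groups had correlations of -0.078 to 0.045 in their deviations from the group means, and 0 of 9 libraries correlated best with their own number, so the numbers were not taken as pairs. The replicate block ended the call of Col6a6 (adjusted p = 0.0525) and kept that of Col12a1 (adjusted p = 0.0409). Of 720 alternative values of the members named that had an adjusted p, 669 kept their direction and their side of the threshold, 11 lost a call, 3 gained one, 37 changed sign without a call in either setting (15 of them with equal totals), and 0 changed sign while called. Among these members the main fit called only Col6a6 in Snd1-KI and Col12a1 in S6k2-RK, and the 11 lost calls were theirs. Most of the 669 were therefore values without a call in either setting. Some settings, such as the replicate block, leave the log2 fold change itself as it was. Col12a1 had 4 to 33 reads per library.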
